A study of Bos taurus with 40 samples.

Results

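The genes described here are the 100 whose expression in jejunal epithelium had the lowest median in feed-restricted bulls relative both to bulls fed freely at the same time and to restricted bulls returned to free feeding. They were chosen by the measured values, as set out next, from 11323 eligible genes, of 13509 listed in both periods. A gene was eligible with a mean of 5 CPM (counts scaled to library size) or more over the 40 libraries, and 1 gene, ENSBTAG00000031814, was left out by the rule. For each gene the group median of log2(CPM + 1) was taken, the restricted group's median was subtracted from each of the other 2 medians, and the 100 genes with the largest value of the smaller difference were kept. Since measured values chose the genes, both differences are given as a description with no test, and both rest on the same restricted libraries.

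All animals were Holstein Friesian bulls on a diet of 70% concentrate and 30% grass silage, and each library came from a different bull. RES animals had a restricted allowance in Period 1 and ADLIB animals ate freely, and libraries were made on day 125, when that period ended. In Period 2 both groups ate freely, and libraries were made after 55 days of it. There were 10 libraries in each of the 4 groups: ADLIB Period 1, RES Period 1, ADLIB Period 2 and RES Period 2. The rule used every group except ADLIB Period 2. The labels also give other animal numbers and name muscle in the extraction step; the sample titles and the tissue label were followed, and the tissue was not checked against marker genes because no table used here pairs the identifiers with gene names.

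The jejunal epithelium is the lining across which much of the digested feed is absorbed, and its cells are renewed continuously from the crypts. Its mass and its transport and digestive proteins are known to respond to the amount of feed. When restricted cattle are fed freely again they can grow faster than animals never restricted, which is called compensatory growth. Genes that are low in restriction and return on free feeding are therefore a pattern of interest in this tissue. In a bulk scraping, fewer cells of a type and less RNA per cell cannot be told apart.

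Between 4431390 and 8295900 reads per library fell on listed genes. RES Period 2 replicate 1 and RES Period 1 replicate 6 stood apart from their period. Their correlations with the period's median profile were 0.815 and 0.883, against 0.918 or more in the other libraries, and 585 and 87 listed genes were at 0 in them. The main counts that include these libraries are also given without them below.

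Among the 100 genes, ADLIB Period 1 exceeded RES Period 1 by 0.48 to 2.53 in log2(CPM + 1), with a median of 0.68. RES Period 2 exceeded RES Period 1 by 0.47 to 2.50, with a median of 0.67. The smaller of the 2 differences was 1 or more in 7 genes only. The last 3 genes inside the limit had smaller differences of 0.48, 0.48 and 0.47, and the first 3 outside it had 0.47 in each case, so the limit falls in a dense part of the distribution. Mean levels ran from 5.45 to 6287 CPM with a median of 27.3 CPM, and 41 of the genes had a mean under 20 CPM.

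**Figure D1:**
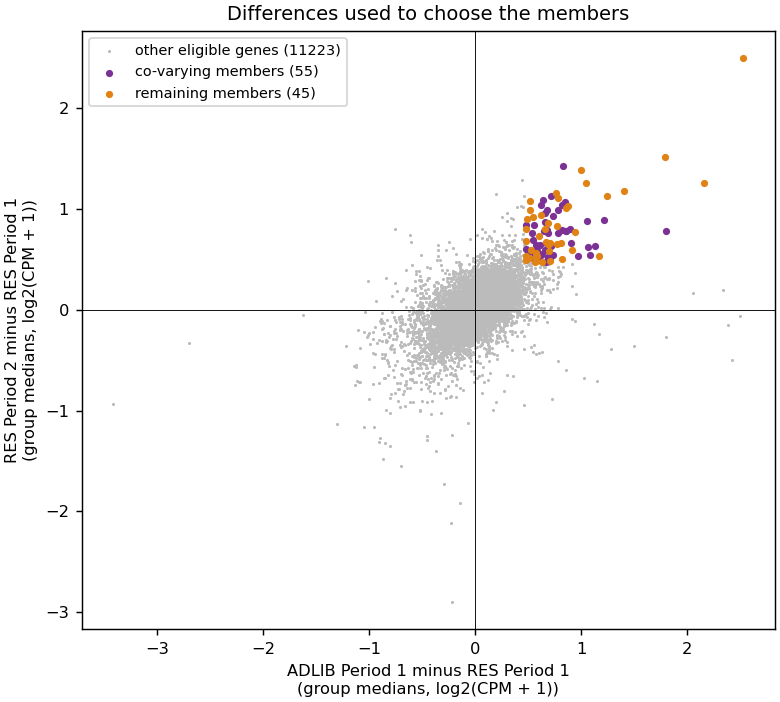
Each point is 1 eligible gene, with the difference of group medians between ADLIB Period 1 and RES Period 1 on the horizontal axis and between RES Period 2 and RES Period 1 on the vertical axis, both in log2(CPM + 1). The 100 chosen genes (coloured by the 2 kinds described in the text) form the upper right edge of the cloud, with only 1 gene near 2.5 on both axes.

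No gene of the 100 separated the groups. In 0 of 100 did every RES Period 1 library lie below every ADLIB Period 1 library (background 0% of eligible genes), in 0 of 100 below every RES Period 2 library (background 0.00883%), and in 0 of 100 below every ADLIB Period 2 library (background 0%). Measured against the ADLIB Period 2 median of each gene, a median of 7 of the 10 RES Period 1 libraries were lower. In 34 genes 8 or more of the 10 were lower, against 12.4% of all eligible genes, in 6 genes all 10 were, against 1.14%, and in 23 genes at most 5 were, against 53.9%. Of those 23, 20 belonged to the 55 co-varying genes described below. RES Period 1 was chosen to be low, so these counts are a description.

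The 2 genes with the largest differences were present at a clear level in some animals and almost absent in others. ENSBTAG00000000336, the first by rank, had a lowest, median and highest value of 0, 24.8 and 109.5 CPM in ADLIB Period 1. In RES Period 1 these values were 0, 8.13 and 53.3 CPM. In ADLIB Period 2 they were 11.3, 25.6 and 54.6 CPM, and in RES Period 2 they were 0, 24.0 and 74.4 CPM. The groups overlapped over most of their range, and every group except ADLIB Period 2 had animals near 0. No library had a value between 1.49 and 11.3 CPM, and 7 ADLIB Period 1, 5 RES Period 1, 10 ADLIB Period 2 and 8 RES Period 2 libraries lay on the upper level. The RES Period 1 median is thus the midpoint of an empty gap, between 0.151 and 16.1 CPM. When 1 of the RES Period 1 libraries near 0 was left out, the smaller difference became 0.55, and when 1 of those on the upper level was left out it became 4.44. The size of the largest difference in the whole set therefore changed with any 1 RES Period 1 animal left out.

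ENSBTAG00000047129, the second by rank, was also split. In ADLIB Period 1 it had a lowest, median and highest value of 0.131, 29.1 and 96.1 CPM, and in RES Period 1 these were 0.343, 8.36 and 53.4 CPM. In ADLIB Period 2 they were 0.138, 25.0 and 76.5 CPM, and in RES Period 2 they were 0.388, 23.7 and 108.2 CPM. Values of 0.745 CPM or less were found in 1 ADLIB Period 1, 4 RES Period 1, 2 ADLIB Period 2 and 1 RES Period 2 library, and the lowest of the others was 4.68 CPM. Every group thus held at least 1 animal with almost no reads of this gene. Leaving out single RES Period 1 libraries gave a smaller difference of 0.92 or 2.12.

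**Figure D2:**
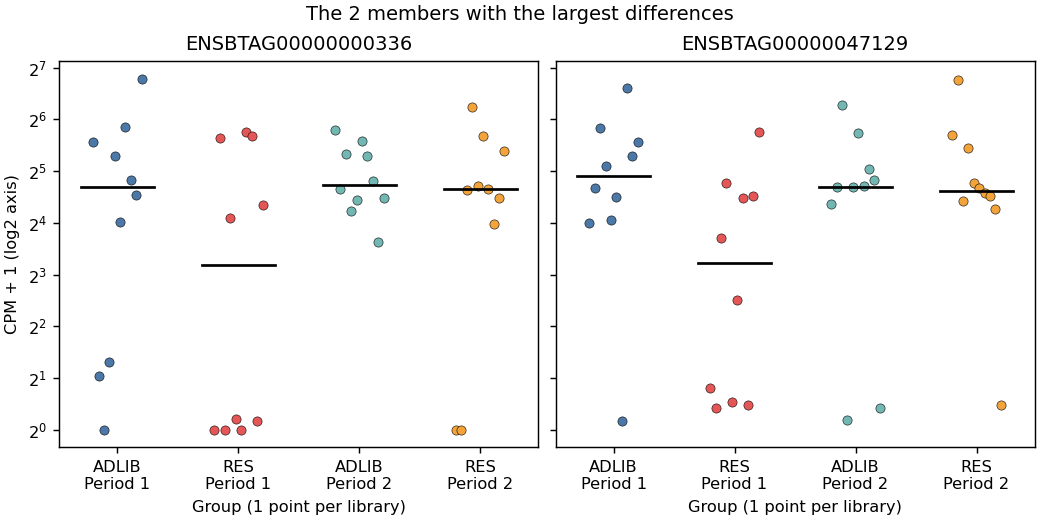
CPM + 1 on a log2 axis for ENSBTAG00000000336 (left) and ENSBTAG00000047129 (right) in the 4 groups of 10 libraries, with 1 point per library and a bar at the group median of CPM. Points sit on an upper level or near 0, and RES Period 1 has 5 points near 0 on the left and 4 on the right.

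Such 2-level genes were counted after these values were seen, as those with a gap of at least 1 in log2(CPM + 1) between neighbouring libraries and at least 4 libraries on each side. There were 4 among the 100 genes, at ranks 1, 2, 4 and 52, and 72 among the 11323 eligible genes. The one at rank 4 had 5, 4, 5 and 5 libraries on its upper level in ADLIB Period 1, RES Period 1, ADLIB Period 2 and RES Period 2. The one at rank 52, with a mean of 302.4 CPM, had 6, 7, 7 and 7, with no library between 0.861 and 67.1 CPM. In these last 2 genes the groups had nearly the same number of animals on each level.

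The 100 genes, the 2-level ones included, fell into 2 kinds by how they varied within groups, a division that the group medians did not use. Deviations from the group median were clustered over the 40 libraries by average linkage, cut at a correlation of 0.5, a level set after the values were seen. The largest cluster held 55 genes, which rose and fell together from animal to animal. The next cluster held 3, and 24 genes stood alone. A cut at 0.6, 0.4 or 0.3 gave a largest cluster of 46, 56 or 63 genes, and without the 2 libraries that stood apart it held 55 genes, 53 of them shared. This regroups the same 100 genes. When the choice of genes itself was repeated without both libraries, 27 of the 55 and 41 of the other 45 were chosen again, and without RES Period 1 replicate 6 alone 35 of the 55 were. Single libraries left out gave 32 to 52 of the 55 and 23 to 44 of the 45, with 36 or fewer of the 55 without RES Period 1 replicate 4, 5, 6, 8 or 9 and 28 or fewer of the 45 without RES Period 1 replicate 1, 2, 7 or 10. The other 45 genes, among them both genes named above, are treated as 1 set below only because they lay outside that cluster.

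In ADLIB Period 2, which had no part in choosing the 100 genes, their median pairwise Spearman correlation over the 10 libraries was 0.236. It was -0.006 among all eligible genes. The share of pairs at 0.5 or more was 30.4% among the 100 and 11.1% among all eligible genes. The split into 2 kinds did use these libraries, and after it the median was 0.673 among the 55 co-varying genes and 0.006 among the other 45. In ADLIB Period 1, RES Period 1 and RES Period 2 the 55 genes had medians of 0.733, 0.661 and 0.842. These points share libraries, their depth and their composition, the cluster itself was formed on the same deviations, and no test was made. The pattern reached a small part of the eligible genes beyond the set. Of these other genes, 671 (5.98% of 11223) had a Spearman correlation of 0.7 or more with the median profile of the 55. A further 0.90% moved the opposite way, with a correlation of -0.7 or less. The correlations were taken on deviations from the group medians over the 40 libraries.

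**Figure D3:**
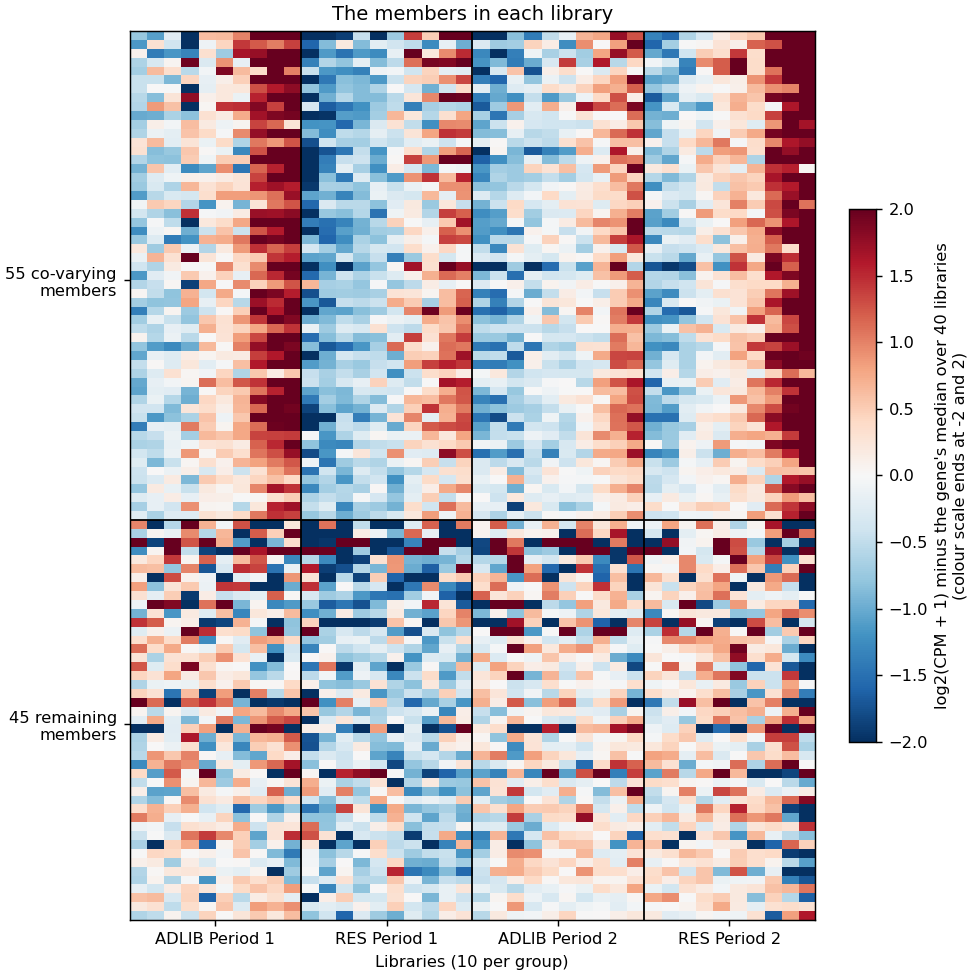
Each row is 1 of the 100 genes and each column 1 library, in 4 groups of 10 ordered within a group by the median of the 55 co-varying genes, and colour gives log2(CPM + 1) minus the gene's median over the 40 libraries. The upper 55 rows turn from blue to red together within every group, and the lower 45 rows share no such order.

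The 55 genes differed more between animals of a group than between groups. The level of the set in a library was taken as the median over the genes of log2(CPM + 1) minus the gene's ADLIB Period 2 median. It had a lowest, median and highest value of -0.43, 0.35 and 2.07 in ADLIB Period 1. In RES Period 1 these were -1.23, -0.30 and 1.31. In ADLIB Period 2 they were -0.72, -0.05 and 1.17, and in RES Period 2 they were -0.53, 0.42 and 3.096. All 4 groups overlapped, and each held animals above and below 0. A level above 1 was reached by 3 ADLIB Period 1 libraries (replicates 3, 4 and 8), 1 RES Period 1 library (replicate 2), 1 ADLIB Period 2 library (replicate 10) and 3 RES Period 2 libraries (replicates 1, 2 and 4). The highest and the lowest of all 40 values belonged to the libraries that stood apart, RES Period 2 replicate 1 at 3.096 and RES Period 1 replicate 6 at -1.23. Without them the highest RES Period 2 value was 2.10 and the lowest RES Period 1 value was -0.69.

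The most abundant gene of the set, one of the 55, also varied widely between animals on the CPM scale. It had a lowest, median and highest value of 1697, 5430 and 28852 CPM in ADLIB Period 1, and of 248.7, 3302 and 5143 CPM in RES Period 1. In ADLIB Period 2 it had 2073, 5982 and 23908 CPM, and in RES Period 2 4119, 5693 and 13653 CPM. The medians of the 3 groups other than RES Period 1 lay close together, and RES Period 1 had both the lowest median and the lowest maximum. This gene was not typical of the 55. Its standard deviation of log2(CPM + 1) was lowest in RES Period 2, at 0.60, where the level of the 55 spread most. Only 2 of the 55, this gene included, had an ADLIB Period 2 median above both ADLIB Period 1 and RES Period 2. The 100 genes together held a median of 1.98% of the reads of eligible genes in ADLIB Period 1, 1.42% in RES Period 1, 2.02% in ADLIB Period 2 and 2.46% in RES Period 2. RES Period 1 was chosen to be low. The highest share in RES Period 2 was 7.77%, in replicate 1, and the next in that group was 4.06%. The 3 most abundant genes, all among the 55, made up much of the highest shares. Without them the share was 2.86% in RES Period 2 replicate 1, and 1.61% in place of 5.75% in ADLIB Period 1 replicate 8.

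The other 45 genes moved less from animal to animal when treated as 1 set. Their level ran from -0.08 to 0.32 in ADLIB Period 1, from -0.69 to -0.30 in RES Period 1, from -0.30 to 0.14 in ADLIB Period 2 and from -0.55 to 0.34 in RES Period 2. All 10 RES Period 1 libraries were below 0, a side that the rule chose to be low. RES Period 2 replicates 1 and 2, the highest of their group for the 55 genes, were the lowest of it for these 45, at -0.55 and -0.45. Single genes among the 45 were not steady, as the 2-level genes show. It is the median over genes that mostly did not vary together that varied little.

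**Figure D4:**
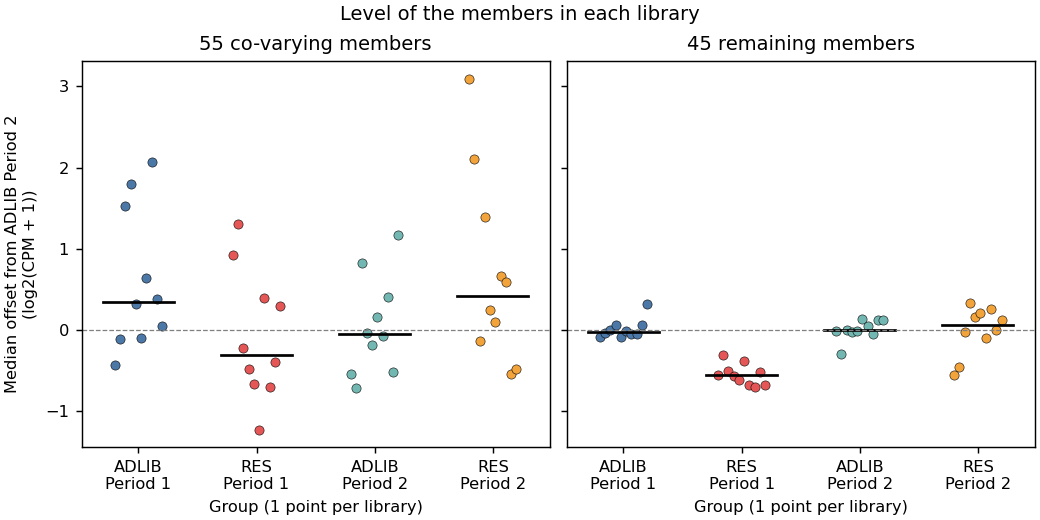
Median over genes of log2(CPM + 1) minus the gene's ADLIB Period 2 median, for the 55 co-varying genes (left) and the other 45 (right), with 1 point per library, 10 per group, and a bar at the group median. On the left the groups overlap and single libraries reach 3.096, and on the right RES Period 1 lies between -0.69 and -0.30, where RES Period 2 replicates 1 and 2 also lie, with ADLIB Period 2 replicate 2 at its upper edge.

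The library titles carry a code from 1 to 4 whose meaning is not given, with 2 to 4 libraries of a group under each. Over all 100 genes, the median level in RES Period 1 was below that in ADLIB Period 1 under every code. It was below that in RES Period 2 under codes 1, 2 and 3, while under code 4 RES Period 2 was lower, at -0.33 against -0.03 in RES Period 1. The rule chose RES Period 1 to be low against both groups in these same libraries, so these directions are a description.

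ADLIB Period 2 gives the level of animals never restricted at the later time, and its place differed between the 2 kinds of genes. The rule chose the levels of the other 3 groups, so its place among them is a description. Over the 100 genes, the median of the group medians was 4.49 in ADLIB Period 1, 3.61 in RES Period 1, 4.20 in ADLIB Period 2 and 4.46 in RES Period 2, in log2(CPM + 1). ADLIB Period 2 was above RES Period 1 in 89 of the 100 genes, against 56.0% of all eligible genes, by a median of 0.41 (range -0.53 to 2.68). The RES Period 1 side of that count was chosen to be low. Without RES Period 1 replicate 6 the count was 80 of 100. ADLIB Period 2 was below both ADLIB Period 1 and RES Period 2 in 71 genes, between them in 11 and above both in 18, and those 2 groups were chosen to be high. Without RES Period 2 replicate 1 these counts were 65, 19 and 16.

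For the 45 other genes ADLIB Period 2 was above RES Period 1 in 45 of 45, against 56.0% of all eligible genes, by a median of 0.60. Placing RES Period 1 at 0% and the mean of ADLIB Period 1 and RES Period 2 at 100%, its median position was 96.5%. The rule chose the 0% end to be low and the 100% end to be high, so these positions do not test recovery. For the 55 co-varying genes ADLIB Period 2 was above RES Period 1 in 44, by a median of 0.26, and its median position was 42.4%. In 51 of the 55 it lay below both ADLIB Period 1 and RES Period 2, and in 35 it was nearer to RES Period 1 than to the mean of these 2. Of the other 45, 20 were below both of those groups and 11 were nearer to RES Period 1, and single positions among them ran from 12.7% to 189.7%, so that the value near 100% holds for their median and not for each gene. Without RES Period 1 replicate 6, ADLIB Period 2 was above RES Period 1 in 36 of the 55 and 44 of the 45. Its median position was then 28.2% for the 55 and 94.5% for the 45. Without RES Period 2 replicate 1, ADLIB Period 2 was below both ADLIB Period 1 and RES Period 2 in 46 of the 55 and 19 of the 45. Its median position was then 45.8% for the 55 and 97.8% for the 45. The difference between the 2 kinds was not tested, since the kinds were formed on the same libraries.

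**Figure D5:**
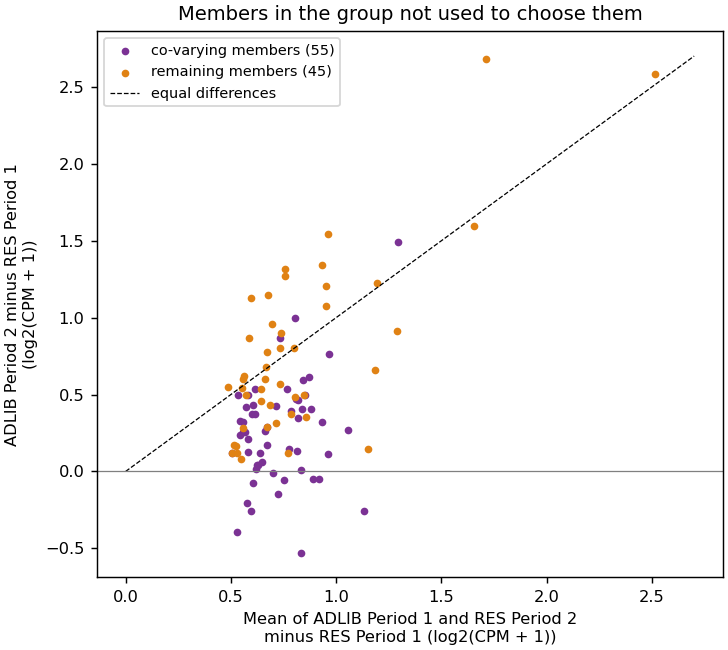
Each point is 1 of the 100 genes, with the mean of ADLIB Period 1 and RES Period 2 minus RES Period 1 on the horizontal axis and ADLIB Period 2 minus RES Period 1 on the vertical axis, in log2(CPM + 1) of group medians. The 45 other genes all lie above 0 on the vertical axis and scatter around the dashed line of equal differences, and 11 of the 55 co-varying genes lie below 0.

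The spread between animals in ADLIB Period 2 was also wide. The median standard deviation of log2(CPM + 1) was 0.75 for the 100 genes (n = 10 libraries), against 0.29 for all eligible genes. Of the 100 genes, 64 exceeded the 90th percentile of all eligible genes. The median was 0.79 for the 55 co-varying genes and 0.62 for the other 45. Choosing the largest differences of medians of 10 libraries can favour genes that vary widely between animals. How far the selection accounts for this spread was not tested.

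The same selection was also made with each other group in the place of RES Period 1, compared with the group of the other feeding in the same period and of the same feeding in the other period. With the same least difference of 0.47, 100 genes were lower in RES Period 1 than in both, 185 in ADLIB Period 1, 70 in RES Period 2 and 104 in ADLIB Period 2. The genes higher than in both were 97, 120, 58 and 36. Without the 2 libraries that stood apart the lower counts were 83, 215, 63 and 87 and the higher counts 114, 104, 51 and 28, so that RES Period 1 then had the most genes on the higher side. Counts of this order were thus also found with groups other than RES Period 1 in its place. The comparisons share groups, and the differences between these counts were not tested.

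At the end of Period 2, RES against ADLIB compares animals 55 days after restriction with animals never restricted. By limma on log2(CPM + 1), 0 of the 100 genes were called at a Benjamini-Hochberg adjusted p under 0.001 over all 13605 genes (background 0%), and the smallest adjusted p among them was 0.990. At an unadjusted p under 0.05, 11 differed (background 2.06%), with 11 higher in RES (background 0.875%) and 0 lower (background 1.18%), and 9 of the 11 belonged to the 55. The median log2 difference was 0.38 over the 100 genes and -0.01 over all genes. The RES side was chosen to be high, so the direction is not independent of the rule. Without the 2 libraries that stood apart, and with all 4 groups in 1 model, 4 genes were higher at that level (background 0.54%). No gene was lower, and the median was 0.25. The same model with all 40 libraries kept had 14 genes at that level (background 2.11%), with a median of 0.38. Of these, 13 were higher in RES (122 of all 13509 genes). On the recovered reads, DESeq2 and edgeR, by its quasi-likelihood and by its likelihood ratio method, each called 0 of the 100, with 36 (background 3.14%), 36 (background 2.89%) and 41 (background 3.46%) higher at an unadjusted p under 0.05. These 3 methods were not run without RES Period 2 replicate 1, so its part in these counts is not known.

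ADLIB Period 2 against ADLIB Period 1 compares unrestricted animals at the 2 times. By limma 0 of the 100 genes were called at an adjusted p under 0.001 over all 13509 genes (background 0%), with a smallest adjusted p of 0.849. At an unadjusted p under 0.05, 16 differed (background 5.12%), of which 13 were lower in Period 2 (background 2.34%) and 3 higher (background 2.78%). Among the 13 were 12 of the 55 co-varying genes. The median log2 difference was -0.32 over the 100 genes and 0.02 over all genes, and the ADLIB Period 1 side was chosen to be high. The same 3 methods, in the same order, called 0 of the 100 at that threshold, with 27 (background 4.4%), 24 (background 4.19%) and 28 (background 4.29%) lower at an unadjusted p under 0.05. The values of each period were scaled separately by the authors.

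The 2 named genes were far from any call. The limma log2 difference of ENSBTAG00000000336 was -0.85 ± 0.67 (SE, n = 10 per group, adjusted p = 0.990) for RES against ADLIB in Period 2. It was -0.40 without RES Period 2 replicate 1, which was at 0 for this gene, and from -0.13 to -0.12 by edgeR and DESeq2 on the recovered reads. That of ENSBTAG00000047129 was 0.47 ± 0.77 (SE, n = 10 per group, adjusted p = 0.990). Between the ADLIB groups they were 0.90 ± 0.70 (SE, adjusted p = 0.849) and -0.49 ± 0.78 (SE, adjusted p = 0.900). For ENSBTAG00000000336 the sign of this last comparison turned on the recovered reads, where edgeR and DESeq2 gave values from -0.11 to -0.094.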

How the data were processed

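RNA of scraped jejunal epithelium from 40 bulls was sequenced as single-end reads. Per the study's methods, the authors aligned reads to the bovine genome UMD3.1, counted them on Ensembl genes with HTSeq and scaled them with edgeR. The deposited values are normalised signal per gene and library, in CPM after TMM scaling within each period. They are whole multiples of what 1 read is worth in each library (100% of values, tolerance 0.05 reads), so reads were recovered, with a median of 6923444 per library. The main test, fitting normalised values, was limma 3.58.1 (R 4.3.3) with an intensity trend on log2(CPM + 1), two-sided, with Benjamini-Hochberg adjustment over all genes and the study's threshold of 0.001. edgeR (4.0.16) and DESeq2 (1.42.0) on recovered reads were alternatives, as were other pseudocounts, filters, a replicate block, the title code as a covariate and libraries left out. The tests and the selection rule were tested on simulated data. On simulated Period 2 reads, limma at an adjusted p under 0.001 recovered 53% of 2-fold and 88% of 4-fold changes. The changed genes were drawn from all genes with a mean above 5 CPM. The 100 genes varied more between animals (median standard deviation 0.75 against 0.29 in ADLIB Period 2), and recovery for such genes was not measured. A count of 0 genes called therefore does not show equal levels.

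Groups were taken from the sample titles, and differences are between separate animals. The members and the lists were chosen with earlier results of these data known. None of the 13509 identifiers matched a symbol in the reference table used here, so the planned gene lists, cell type markers and promoter motifs were not used here. By the naming rule for that case the 2 genes with the largest differences are given by identifier, along with the gene the rule leaves out. The 2 kinds of genes, the 2-level count and the omission of both outlying libraries together from the rule were chosen after seeing the data.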

Additional observations from a re-analysis of the deposited data

Results flagged for a closer look

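In 20 groups of 10 libraries a single library apart from the rest was sought, by Dixon's ratio of the end gap to the range. Its 95% critical value was exceeded in 4. For values of a single normal spread chance flags about 1 in 20, a rate that does not hold for the 2-level genes. The level of the 45 other genes gave 0.627 in ADLIB Period 1, where replicate 10 was high at 0.32, and 0.592 in ADLIB Period 2, where replicate 2 was low at -0.30. For ENSBTAG00000047129 the ratio was 0.595 in ADLIB Period 1, where replicate 7 was low at 0.131 CPM, and 0.602 in RES Period 2, where replicate 10 was low at 0.388 CPM.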

How the results depend on the processing

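The list of genes depends on the choices behind it. Group means in place of medians kept 48 of the 100, and a minimum mean of 20 CPM kept 59, since 41 were then not eligible. Leaving out single libraries kept 69 to 87, with 30 genes kept throughout, leaving out RES Period 1 replicate 6 and RES Period 2 replicate 1 together kept 68 (27 of the 55 co-varying genes and 41 of the other 45), and 12 genes were kept in all 37 settings. No alternative called any of the 100 at an adjusted p under 0.001 or 0.05, and at 0.1 DESeq2 called 1 (14 of all 13509 genes, 0.104%), lower in ADLIB Period 2 than in ADLIB Period 1. For RES against ADLIB in Period 2, members at an unadjusted p under 0.05 numbered from 4 to 41. The 4 (1.47% of all genes) were found without the 2 libraries and with all groups in 1 model. The 41 (4.32%) came from the likelihood ratio test, with RES Period 2 replicate 1 kept. For ADLIB Period 2 against Period 1 they numbered from 7 (2.55%, all libraries in 1 model) to 30 (5.66%, likelihood ratio test). In the main limma test these counts were 11 (2.06%) and 16 (5.12%). For ENSBTAG00000000336 the last comparison turned from 0.90 to -0.11 (likelihood ratio test), -0.11 (quasi-likelihood test) and -0.094 (DESeq2). The causes were not tested. Replicate numbers did not pair the animals: the mean correlation of deviations was -0.087 for equal and 0.024 for unequal numbers in Period 2, and -0.016 and 0.006 between the ADLIB groups. With the replicate block 0 genes were called, and 6 (1.8% of all genes) and 24 (4.18%) had an unadjusted p under 0.05.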
